A study of Mus musculus with 45 samples.

Results

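Transcripts of 47 splicing genes were followed in mouse adipocytes: SR proteins, hnRNPs, spliceosome subunits and their cofactors, listed by gene name. A gene was counted as measured when a probe set of the array carried its symbol and no other. By that rule 45 of the 47 genes were measured, on 178 of the 45037 probe sets of the array. Srsf7 had no such probe set, and Hnrnpa3 was found only on probe sets shared with a second symbol, so neither is described. For counts over genes the brightest probe set of each gene, by its mean over the 45 mice, stood for the gene.

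The RNA came from adipocytes isolated from parametrial and periovarian fat of 45 female C57BL/6 mice, with 1 Affymetrix array per mouse and values on a log2 scale after robust multi-array averaging (RMA). Every mouse lacked ApoE, including the chow-fed controls. D mice also carried 1 lost allele each of the insulin receptor and of its docking protein IRS1 (IR+/- IRS1+/- ApoE-/-), which lowers insulin signalling in every tissue and not in adipocytes alone, and E mice were ApoE -/- only. A Western (W) or Chow (C) diet was given from 8 weeks of age for 8 or 16 weeks. The groups were DC8 (n = 7), DW8 (n = 5), EW8 (n = 6), DC16 (n = 5), DW16 (n = 9), EC16 (n = 5) and EW16 (n = 8). E mice on 8 weeks of Chow were not analysed here, so EW8 has no diet control.

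Splicing removes introns from pre-mRNA. The U1 and U2 snRNPs mark the ends of the intron, and the U5 protein PRPF8 sits at the catalytic centre that forms when the other snRNPs join. SR proteins bind exons through their RNA recognition motifs and recruit this machinery, whereas hnRNPs often block it, and the balance of both sets which exons are kept. CLK and PRP4 kinases phosphorylate the arginine and serine repeats of SR proteins, and SON, SRRM1, SRRM2 and pinin (PNN) reside in nuclear speckles, where these factors are stored. Many of the genes also make unproductive or intron-retaining transcripts of their own, so that different probe sets of a gene can read different isoforms. In fat cells, splicing controls among others the insulin receptor and LPIN1 isoforms.

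The promoters of Pnn, Son and Prpf8 are shown because the results below turn on these 3 members and their RefSeq promoter window surrounds the annotated gene start. Each window holds 250 bases before and 50 bases after the start on the plus strand of GRCm38.p6, at chr12:59066669-59066968 for Pnn, chr16:91647574-91647873 for Son and chr11:75486527-75486826 for Prpf8. Capitals mark CCAAT or its complement ATTGG and CCGGAA or its complement TTCCGG, and no marked match overlaps another.
Pnn: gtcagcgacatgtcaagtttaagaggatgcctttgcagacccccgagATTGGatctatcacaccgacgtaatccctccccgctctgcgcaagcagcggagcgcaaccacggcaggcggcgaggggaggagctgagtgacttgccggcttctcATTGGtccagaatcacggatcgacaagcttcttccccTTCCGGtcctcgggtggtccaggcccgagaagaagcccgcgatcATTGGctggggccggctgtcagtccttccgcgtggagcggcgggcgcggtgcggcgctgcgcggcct
Son: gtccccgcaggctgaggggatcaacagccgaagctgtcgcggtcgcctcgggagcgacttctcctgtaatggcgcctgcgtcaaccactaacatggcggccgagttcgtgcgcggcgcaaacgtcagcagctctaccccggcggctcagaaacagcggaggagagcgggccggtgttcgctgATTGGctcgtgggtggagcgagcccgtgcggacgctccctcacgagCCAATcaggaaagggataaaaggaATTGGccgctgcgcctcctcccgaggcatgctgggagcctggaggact
Prpf8: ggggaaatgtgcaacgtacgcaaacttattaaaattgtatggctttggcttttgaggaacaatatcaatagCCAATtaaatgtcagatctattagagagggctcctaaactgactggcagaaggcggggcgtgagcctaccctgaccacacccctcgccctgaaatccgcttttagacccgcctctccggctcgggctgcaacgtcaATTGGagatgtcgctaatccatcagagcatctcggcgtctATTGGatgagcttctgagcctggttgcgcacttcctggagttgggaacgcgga
The 3 windows each held 3 CCAAT matches. Across the 62 promoter windows listed for 44 of the 47 members, CCAAT occurred in 31 (50%), against 37.4% of all 32851 windows. The search covered both strands and 8 motifs. The GC box GGGCGG occurred in 66.1% of member windows against 35.7% of all, and the ETS core CCGGAA in 33.9% against 14.9%. Median GC content was 64.2% in member windows and 52.7% in all windows, a difference that itself changes how often GC-rich letters occur. TATAAA was found in 11.3% against 13.6%, CACGTG in 11.3% against 7.15%, AAGATGGC in 4.84% against 2.75%, the NRF1 palindrome in 3.23% against 0.971% and TGACGTCA in 3.23% against 1.79%. These are counts of letters, not of binding sites.

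Arrays were not alike. On 10 arrays, those of DW16 mice 1 to 7 and EW16 mice 1 to 3, values spanned a narrower range, with an array SD of 2.11 to 2.35 against 2.39 to 2.53 on the other 35. The mean level over the 45 members was 9.88 to 10.68 on the narrow-range arrays and 10.45 to 10.97 on the others. After quantile normalization over all arrays the same ranges were 10.50 to 10.77 and 10.40 to 10.83. Of the member probe sets, 11 lay lower and 1 higher on all 10 narrow-range arrays than on any other array, where 3.79% of all probe sets did so in either direction. After quantile normalization 8 of the 178 member probe sets lay lower and 8 higher, against 719 lower and 750 higher among all 45037. The difference between these arrays and the rest cannot be told apart from diet and time in DW16, where only mice 8 and 9 have other arrays. Adipocyte markers were present throughout, with a mean level over 10 genes of 12.99 to 13.16 in DC8 and 13.03 to 13.20 in DW8, of 11.71 to 13.15 in DW16 and of 11.50 to 13.05 in EW16, and between 12.75 and 13.18 in the other groups.

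**Figure D1:**
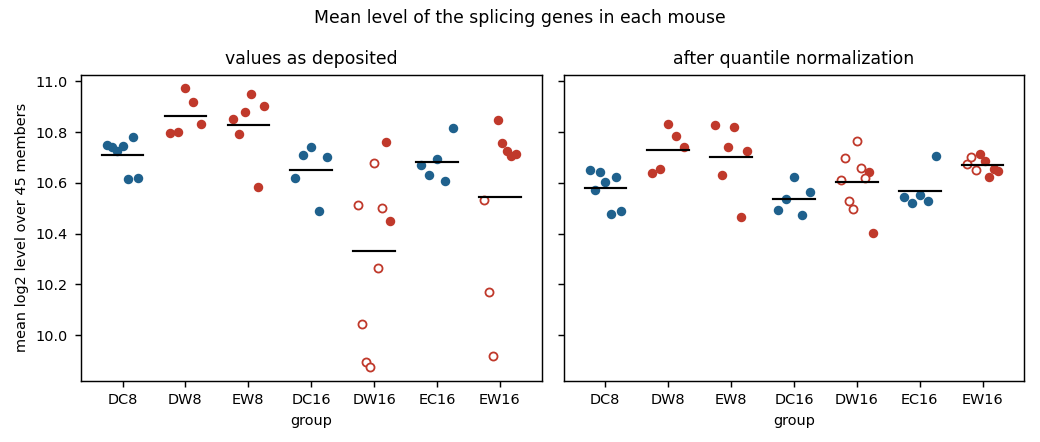
Mean log2 level over the 45 members in each mouse (y axis) by group (x axis), as deposited on the left and after quantile normalization on the right. Points are mice, blue on Chow and red on Western diet, open points are the 10 narrow-range arrays, and horizontal lines are group means. All DW8 mice (10.80 to 10.97) lie above all DC8 mice (10.62 to 10.78) as deposited, and both groups overlap after quantile normalization (from 10.64 in DW8, up to 10.65 in DC8). The lowest values on the left are open points, and the lowest on the right is a filled point, DW16 mouse 9 at 10.40 (10.45 on the left).

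Across all 7 groups a large share of the splicing genes differed, by representative probe sets close to the share among all genes. The moderated F test of limma called 19 of 45 members at an adjusted p under 0.01, that is 42.2%, against 37.3% of the representative probe sets of all 18193 genes. Over probe sets the count was 82 of 178, a larger share at 46.1% against 32.2% of all. Without the 10 narrow-range arrays 10 members and 52 of their probe sets were called, against 15% of all probe sets.

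After 8 weeks of Western diet, probe sets of 8 splicing genes were called higher in D mice, and none was called lower. In DW8 against DC8, 10 of 178 member probe sets were called, all higher, from 8 genes: Rbm25, Pnn, Son, Srrm1, Luc7l3, Prpf38b, Rbm5 and Ddx17. Among all probe sets 1.08% were called, 415 higher and 70 lower. Rbm5 was not called after quantile normalization (adjusted p = 0.010). By representative probe sets the count was 1 of 45 (Rbm25), against 0.797% of all genes. The shift was broad but small: 37 of 45 members had a positive difference, with a median of 0.09 on the log2 scale against -0.04 over all genes. At an unadjusted p under 0.05, 31.1% of members were higher and 0 lower, where 7.42% of all genes were higher.

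RBM25 binds exonic enhancers and associates with the U1 snRNP. On its representative probe set 1425523_at the DW8 mice measured 9.31, 9.23, 9.63, 9.20 and 9.24, and DC8 mice ran from 8.19 through a median of 8.28 to 9.17. The groups did not overlap, and the highest DC8 value belonged to mouse 1 alone, with the next at 8.47. Rbm25 was 9.32 ± 0.18 (SD, n = 5) in DW8 and 8.42 ± 0.35 (SD, n = 7) in DC8, a log2 difference of 0.91 (SE 0.15, adjusted p = 0.0053). Probe sets 1437862_at (1.03, SE 0.18) and 1425522_at (1.21, SE 0.20) of the same gene were called higher as well. EW8 mice lay at 9.24 to 9.53 on 1425523_at, in the range of DW8. With 1 mouse left out at a time, 1425523_at stayed called in 3 of 12 fits and its difference ran from 0.83 to 1.03.

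SON is a large scaffold protein of nuclear speckles that supports the splicing of weak introns. On 1455634_at the DW8 mice had 7.91, 7.74, 7.94, 8.26 and 7.94, and DC8 mice had 6.83 at the lowest, 6.92 at the median and 7.46 at the highest. Every DW8 mouse exceeded every DC8 mouse, by a mean of 0.85 (SE 0.13, adjusted p = 0.0034). Its representative probe set is another one, and there the difference was 0.06.

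Pnn encodes pinin, which joins speckles and the exon junction complex. Probe set 1423325_at read 6.42, 6.31, 6.56, 5.43 and 5.74 in DW8 and from 4.25 through 4.48 to 5.50 in DC8. The groups touched only through DC8 mouse 1, which at 5.50 exceeded the lowest DW8 mouse, while the next DC8 mouse was at 4.57. The difference was 1.52 (SE 0.23, adjusted p = 0.0029), and the representative probe set of Pnn differed by 0.05.

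Other called probe sets belonged to Rbm5 (1452187_at, 0.94), whose product regulates exons of apoptosis genes, Srrm1 (1420935_a_at, 0.78), a coactivator that bridges SR proteins, and Ddx17 (1439037_at, 0.59), an RNA helicase. Prpf38b (1456506_at) was higher by 0.56 and Luc7l3 (1451485_at), a U1 partner, by 0.49. With 1 mouse left out at a time, Son and Pnn stayed called in 10 of 12 fits, Ddx17 in 5, Prpf38b in 4 and Rbm5, Srrm1 and Luc7l3 in 2. Where 1.08% of all probe sets were called, none of the 43 probe sets of SR proteins and none of the 34 of hnRNPs was. The nearest among them by representative probe set was Srsf10, an SR protein whose activity depends on its phosphorylation, with 9.60, 9.64, 9.81, 9.71 and 9.84 in DW8 against 8.80 to 9.43 (median 9.34) in DC8. These groups did not overlap, yet the adjusted p was 0.017 (difference 0.49, SE 0.10). Luc7l3 on its representative probe set likewise had no overlap, at 10.61, 10.71, 10.96, 10.86 and 10.77 against 10.39 to 10.57 with a median of 10.43, and an adjusted p of 0.018. Of the 8 members with a negative difference the 3 smallest adjusted p values were those of Prpf8 (-0.16, adjusted p = 0.51), Hnrnpa1 (-0.12) and Ptbp1 (-0.08).

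**Figure D2:**
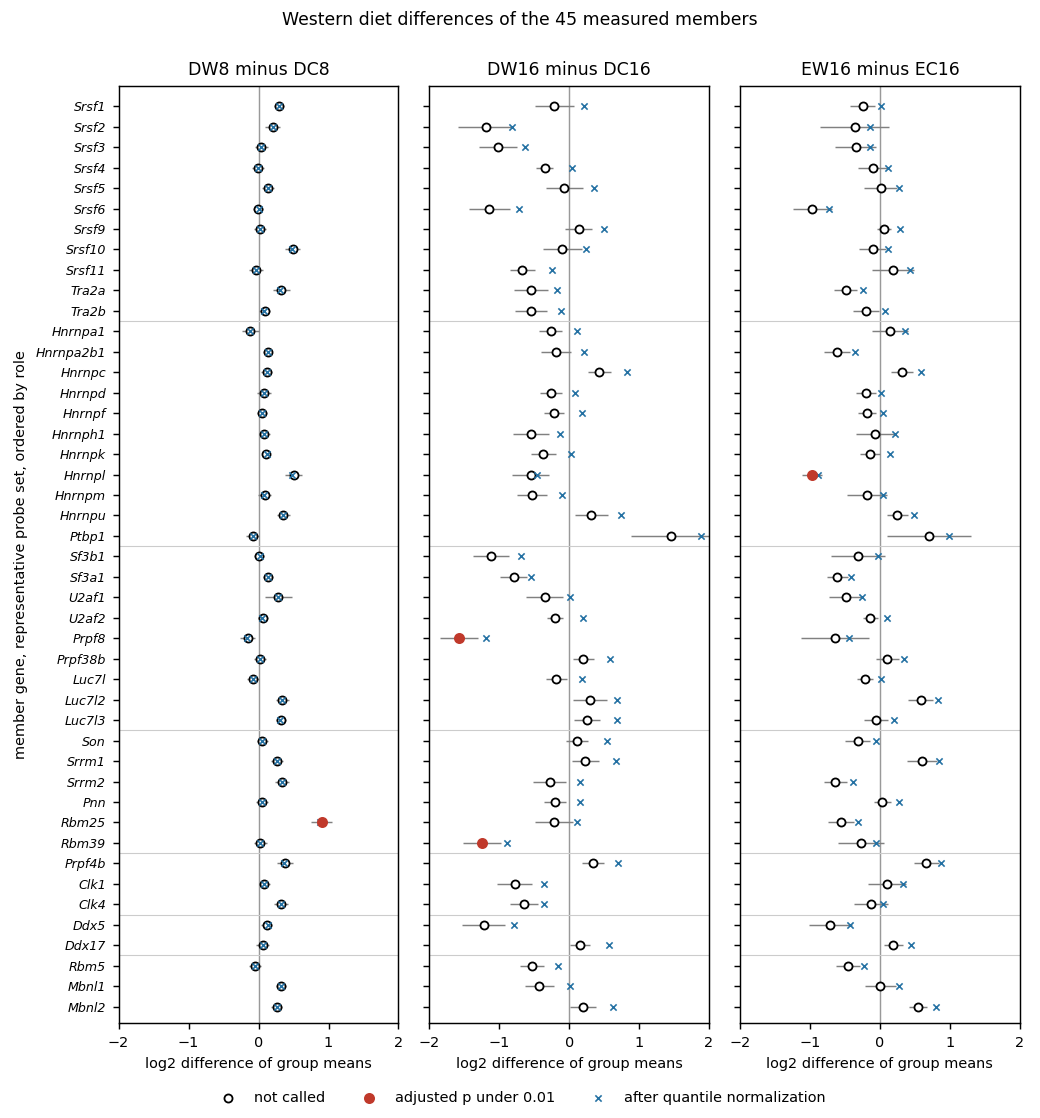
Log2 difference of group means (x axis) for the representative probe set of each of the 45 measured members (y axis, ordered by role) in the 3 diet comparisons. Circles are values as deposited with bars of 1 standard error, filled red where the adjusted p was under 0.01, and crosses are differences after quantile normalization. Rbm25 was called in DW8 against DC8, Prpf8 and Rbm39 in DW16 against DC16 and Hnrnpl in EW16 against EC16, and crosses lie to the right of the circles in both 16-week panels.

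Markers of other cells that an adipocyte preparation can hold were read beside these genes. In DW8 against DC8 limma called 0 genes on each of the lists of macrophage, lymphocyte, endothelial, mesothelial, fibroblast and mural cell markers. At an unadjusted p under 0.05 these lists held 1 higher macrophage marker of 10 and, lower, 1 lymphocyte marker of 8, 4 endothelial of 10, 0 mesothelial of 10, 2 fibroblast of 9 and 2 mural of 8. Of all genes 7.42% were higher and 13.4% lower by the same rule. The median difference was 0.01 for macrophage and -0.35 for mural cell markers. The mesothelial list ran from 6.55 to 7.63 in DW8 and from 6.36 to 8.04 in DC8. Their part in the result was not tested. Malat1, a nuclear RNA of speckles, was higher by 2.28 (SE 0.31, adjusted p = 0.0020) in the same comparison, whereas Neat1, the paraspeckle RNA, differed by 0.22 with an adjusted p of 0.59.

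After 16 weeks the picture in D mice was mixed. In DW16 against DC16, 10 of 178 member probe sets were called, 6 higher and 4 lower, against 3.43% of all probe sets. By representative probe sets 2 of 45 were called, Prpf8 and Rbm39, both lower, against 3.95% of all genes. The median member difference was -0.27 as deposited and 0.11 after quantile normalization, so the direction of the group as a whole changed with the scaling, while the median over all genes was -0.01 and 0.02. Over all probe sets 23.2% of the 1545 calls as deposited were higher, and 47.9% of the 1446 calls made after quantile normalization. At an unadjusted p under 0.05, 3 members were higher (6.67%) and 16 lower (35.6%), against 15.3% and 27.4% of all genes.

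PRPF8 is the largest protein of the U5 snRNP. On 1422453_at DW16 mice ranged from 8.74 through a median of 9.03 to 10.54, and DC16 mice measured 10.87, 11.04, 10.75, 10.86 and 10.84. The groups did not overlap, with a difference of -1.57 (SE 0.27, adjusted p = 0.0048), or -1.19 after quantile normalization (adjusted p = 0.0042). The low values coincided with the narrow-range arrays. All 10 of these arrays, EW16 mice 1 to 3 included, lay between 8.55 and 9.18, and all 35 others lay between 10.09 and 11.29. DW16 mice 8 and 9, on other arrays, had 10.54 and 10.28 and differed from DC16 by -0.46 (SE 0.13, unadjusted p = 0.0068, adjusted p = 0.46). EW16 mice 4 to 8 were 0.20 above EC16 (SE 0.10, adjusted p = 0.21).

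RBM39 is an SR-like factor related to U2AF2. Its probe set 1426671_a_at read 8.28 to 10.23 with a median of 8.85 in DW16, and 10.48, 10.37, 10.08, 9.85 and 10.32 in DC16. The difference was -1.25 (SE 0.27, adjusted p = 0.0093). The overlap came from DW16 mouse 8, and without the narrow-range arrays the difference was -0.37 (SE 0.24, unadjusted p = 0.15). SF3B1 and SF3A1 belong to the U2 snRNP and hold the branch site. Sf3b1 spanned 10.57 to 12.41 (median 11.29) in DW16 against 12.54, 12.58, 12.41, 12.36 and 12.35 in DC16, a difference of -1.12 with an adjusted p of 0.011.

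The probe sets called higher in DW16 were in part those of 8 weeks. Pnn 1423325_at stood at 5.04 to 6.84 (median 5.89) in DW16 and at 4.59, 4.26, 4.65, 4.57 and 4.77 in DC16, with no overlap between the groups and a difference of 1.39 (SE 0.24, adjusted p = 0.0050). DW16 mice 8 and 9, on other arrays, exceeded all DC16 mice too, a difference of 0.97 (SE 0.16, unadjusted p = 2.2e-04, adjusted p = 0.20). Son 1455634_at was 7.37 to 8.55 (median 8.04) in DW16 and 6.66, 7.02, 7.39, 7.00 and 7.15 in DC16. That difference of 0.94 (SE 0.19, adjusted p = 0.0072) left an overlap through DW16 mouse 9, and it was 0.44 (SE 0.19, adjusted p = 0.65) with mice 8 and 9 alone. Over the 7 Son probe sets the differences between DW16 and DC16 ran from -1.08 to 0.94. With 1 mouse left out at a time Prpf8 and Pnn stayed called in 9 of 14 fits, Rbm25 1425522_at in 3 and Son and Rbm39 in 2. Rbm25 1425522_at ran from 4.95 to 6.72 (median 5.69) in DW16 and measured 4.46, 4.67, 4.63, 3.98 and 4.66 in DC16, a difference of 1.27 (SE 0.26, adjusted p = 0.0080) with no overlap. Luc7l 1452708_a_at (1.08), Mbnl1 1457924_at (0.92) and Srsf6 1447898_s_at (0.48) were the others called higher, and Srsf2 1452439_s_at (-0.98) and Luc7l2 1427087_at (-0.57) were called lower with Prpf8 and Rbm39. Luc7l2 1427087_at lost its call after quantile normalization (-0.25, adjusted p = 0.19), as did Srsf2 1452439_s_at (adjusted p = 0.012) and Rbm25 1425522_at (adjusted p = 0.013).

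Members with the smallest adjusted p among those with a positive difference did not reach the threshold. Ptbp1, which represses exons through polypyrimidine tracts, had a representative probe set, 1458284_at, at 9.11 to 12.50 (median 10.48) in DW16 and at 9.40, 8.82, 9.53, 10.19 and 9.41 in DC16 (1.45, SE 0.57, adjusted p = 0.076). Its probe set 1424874_a_at differed the other way, by -1.52 (SE 0.36, adjusted p = 0.014). In DC8, DW8, EW8 and DC16 1424874_a_at was brighter than 1458284_at, for example at a mean of 9.81 against 9.29 in DC8. In EW16 it averaged 8.93 against 10.22. The choice of 1458284_at as representative therefore rested on the 16-week Western groups, where it was higher. The 6 highest of all 45 values of 1458284_at came from DW16 mice 2, 3, 4 and 6 and EW16 mice 2 and 3, all on narrow-range arrays. Hnrnpc, which coats uridine tracts of nascent RNA, differed by 0.43 (adjusted p = 0.077) and Prpf4b by 0.34 (adjusted p = 0.12).

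**Figure D3:**
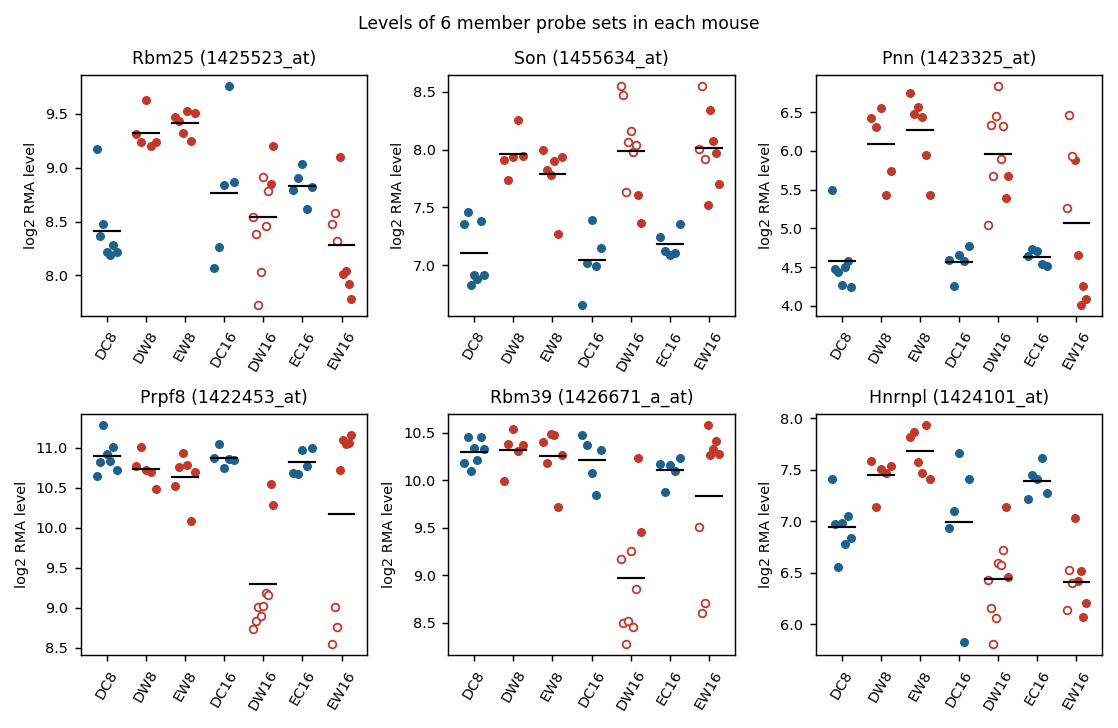
Log2 RMA level (y axis) of 6 member probe sets in each mouse of the 7 groups (x axis), blue on Chow and red on Western diet, with open points for the 10 narrow-range arrays and horizontal lines for group means. The open points of Prpf8 lie at 8.55 to 9.18 and all filled points at 10.09 to 11.29, whereas Son lies above the Chow mice in filled and open points of EW16 (7.52 to 8.55 against 7.09 to 7.36 in EC16).

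In E mice after 16 weeks of Western diet Hnrnpl was called lower, and 1 of the 7 Son probe sets was called higher. In EW16 against EC16, 3 of 178 member probe sets were called against 2.66% of all, and 1 of 45 representatives, Hnrnpl, against 3.75% of all genes. HNRNPL binds CA-rich RNA and regulates alternative exons. On 1424101_at EW16 mice lay at 6.08 to 7.04 (median 6.41) and EC16 mice at 7.22, 7.45, 7.41, 7.62 and 7.27. No EW16 mouse reached the EC16 range, and the difference was -0.98 (SE 0.14, adjusted p = 0.0028). It was -0.94 (SE 0.16, adjusted p = 0.0037) with EW16 mice 4 to 8 only. In D mice the difference was not called, at 5.81 to 7.14 (median 6.46) in DW16 against 6.93, 7.11, 7.67, 5.83 and 7.41 in DC16.

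Son 1455634_at was called higher in E mice too. EW16 mice read 7.52 to 8.55 (median 7.99) and EC16 mice 7.24, 7.12, 7.09, 7.11 and 7.36, without overlap, for a difference of 0.83 (SE 0.15, adjusted p = 0.0054). Over the 7 Son probe sets the differences between EW16 and EC16 ran from -0.63 to 0.83. The representative one averaged 10.47 in EW16 and 10.79 in EC16. Hnrnpl stayed called in 10 of 13 fits with 1 mouse left out, Son in 5 and Rbm25 1428908_at in 1. Son remained called without the narrow-range arrays (0.74, SE 0.14, adjusted p = 0.0054). Of the 178 member probe sets, 1455634_at was the one called in all 3 diet comparisons, which share no samples. The share of all probe sets called in all 3 does not stand beside this count, which is not read as particular to splicing genes. Rbm25 1428908_at was lower, at 7.02 to 8.56 (median 7.56) against 8.59, 8.49, 8.61, 8.47 and 8.76, by 0.98 in EW16 (SE 0.20, adjusted p = 0.0097). Each of the Rbm25 probe sets called at 16 weeks had the same sign in both genotypes. Between DW16 and DC16 1428908_at differed by -1.05 (adjusted p = 0.017), and 1425522_at, called higher in D mice, differed by 0.80 in E mice (adjusted p = 0.11). EW16 mouse 4 was the mouse that overlapped with EC16. Pnn 1423325_at, called in D mice at both times, was not called here. EW16 mice 1 to 4 read 5.26, 6.47, 5.93 and 5.88, and mice 5 to 8 read 4.66, 4.01, 4.25 and 4.09. The former exceeded the EC16 range of 4.51 to 4.74, mouse 5 lay within it and mice 6 to 8 below it.

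Without the narrow-range arrays the E comparison gained calls. EW16 mice 4 to 8 against EC16 gave 21 member probe sets, 19 higher and 2 lower, against 7.02% of all probe sets, and 6 representatives against 9.27% of all genes. Clk1, Mbnl2, Srrm1, Srsf11 and Prpf4b were higher and Hnrnpl was lower. After quantile normalization of all EW16 and EC16 arrays 4 representatives were called, 3 of them higher, and 7 of 178 member probe sets, against 2.64% of all probe sets. Prpf4b, a kinase of the tri-snRNP, was called on 4 of its probe sets, with differences from 0.55 on 1451909_a_at to 1.36 on 1436427_at. On 1455696_a_at EW16 mice had 8.74 to 9.91 (median 9.12) and EC16 mice 8.59, 8.21, 8.54, 8.42 and 8.88. Mbnl2, whose product switches exons between fetal and adult forms, had 11.44 to 12.05 (median 11.91) against 11.48, 10.97, 11.21, 11.31 and 11.43, a difference of 0.54 over all 8 mice (adjusted p = 0.015) and 0.63 without the narrow-range arrays (adjusted p = 0.0034). Sf3a1 was 7.39 to 8.42 (median 7.79) against 8.29, 8.13, 8.51, 8.41 and 8.61, and its difference of -0.61 had an adjusted p of 0.023. In D mice the same step left 2 mice against 5, and limma then called 0 member probe sets and 0% of all, with 1 representative, Prpf8, at an unadjusted p under 0.05 against 8.1% of all genes.

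Probe sets of a member often differed in sign. Signs were counted at any size of difference and at any level, and Hnrnph1 counts in EW16 against EC16 at -0.07 and 0.09. The same count over all genes does not stand beside them. Of 37 members with several probe sets, 18 had differences of both signs in DW8 against DC8, 28 in DW16 against DC16 and 31 in EW16 against EC16, and the median range within a gene was 0.50, 1.15 and 0.84 on the log2 scale. Ptbp1 in DW16 had the widest range, 2.97, between the values given above. Pnn gave 1.39 on 1423325_at and -1.42 on 1450938_at. Ddx5, an RNA helicase, gave -1.22 on 1419653_a_at and 1.35 on 1433809_at. In DW16 against DC16 the sign followed the level of the probe set: below a mean level of 7, 35 of 53 member probe sets had a positive difference (median 0.16), and at 10 or more 11 of 51 had (median -0.35). After quantile normalization these medians were 0.06 in both bands. In DW8 against DC8 the medians of the same bands were 0.16 and 0.11.

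**Figure D4:**
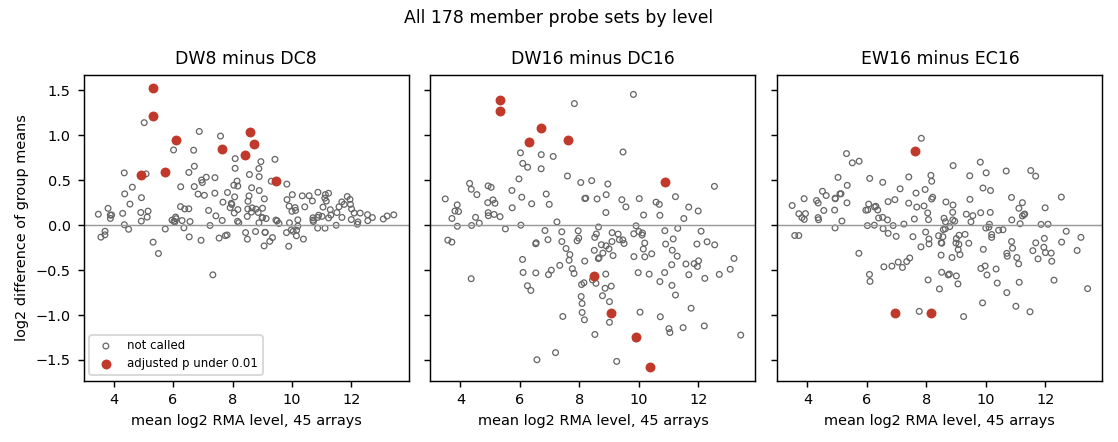
Log2 difference of group means (y axis) against mean log2 RMA level over 45 arrays (x axis) for the 178 member probe sets in the 3 diet comparisons, with red points for an adjusted p under 0.01. All 10 called probe sets lie above 0 in DW8 minus DC8, and in DW16 minus DC16 the points fall from mostly positive at low levels to mostly negative at high levels.

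By role, all 6 speckle members had a positive difference at 8 weeks (median 0.16), as had most members of the other roles. Of their 38 probe sets 6 were called, against 1.08% of all probe sets. Those called include Rbm25 1425522_at, 1425523_at and 1437862_at, which read 1 gene. The 3 kinases Prpf4b, Clk1 and Clk4 were positive too, with a median of 0.33 and 0 of 9 probe sets called by limma. SR proteins and hnRNPs had medians of 0.09 each. In DW16 against DC16 the medians of SR proteins and hnRNPs were -0.55 and -0.26 as deposited and -0.11 and 0.12 after quantile normalization.

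Between 8 and 16 weeks on Western diet, members of several roles fell in D mice. In DW16 against DW8, 9 of 45 members were lower and 0 higher against 6.67% of all genes, and 25 probe sets were called against 5.41%. The 9 were Prpf8, Sf3b1, Sf3a1, Srsf2, Srsf6, Rbm39, Clk4, Ddx5 and Hnrnpl, with differences from -0.87 for Sf3a1 to -1.66 for Srsf2. After quantile normalization 8 members and 22 probe sets were called, all lower, against 5.5% of all probe sets. The median over the 45 members moved from -0.61 to -0.19, that of SR proteins from -0.72 to -0.31, and those of hnRNPs and spliceosome members changed sign, from -0.36 to 0.06 and from -0.31 to 0.08. Without the narrow-range arrays, which here are 7 of the 9 DW16 arrays, 0 were called. In EW16 against EW8, where 1.57% of all probe sets were called, Hnrnpl (-1.27, SE 0.14), Rbm25 (-1.14, SE 0.17) and Tra2a (-0.83, SE 0.14) were lower and none was called higher, against 1.84% of all genes. After quantile normalization Hnrnpl stayed called, and Rbm25 (adjusted p = 0.019) and Tra2a (adjusted p = 0.034) did not. Without the narrow-range arrays, or with mice blocked by replicate number, 0 members were called in EW16 against EW8. Hnrnpl lay at 7.41 to 7.94 in EW8 and at 6.08 to 7.04 in EW16. Rbm25 1425523_at lay at 7.79 to 9.10 in EW16, below all EW8 mice. These comparisons share the Western groups with those above and are not independent of them.

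No member was called between genotypes. Limma called 0 of 45 members in DW8 against EW8, in DW16 against EW16 and in DC16 against EC16, with 0, 5 and 2 members at an unadjusted p under 0.05, where 4.5%, 16.3% and 6.98% of all genes reached it. Over all probe sets 0% were called in DW8 against EW8 and in DW16 against EW16, and 0.00222% in DC16 against EC16. In DC16 against DC8 limma called 0 members, and 1 had an unadjusted p under 0.05 against 9.71% of all genes. The 16-week diet effect did not differ detectably between D and E mice (limma called 0 of 45, 3 at an unadjusted p under 0.05 against 5.83% of all genes). For the effect in D mice at 16 against 8 weeks limma called 0 members, where 0.0055% of all genes and 0.00444% of all probe sets were called. At an unadjusted p under 0.05 it gave 23 members against 31.7% of all genes, with 2.22% of members higher and 48.9% lower against 12.5% and 19.2% of all genes. Without DW16 replicate 8, 9 members and 31 member probe sets were called. Over the fits with 1 mouse left out, 0 to 3037 of all 45037 probe sets were called.

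Other genes of the splicing pathway were read from 3 lists. In DW8 against DC8, 0 of 53 other snRNP and spliceosome genes were called by limma, with 6 higher and 12 lower at an unadjusted p under 0.05, where 7.42% of all genes were higher and 13.4% lower. Those with the smallest adjusted p were Snrpc (-0.31), Ddx42 (0.39), Snrpf (0.37) and Snrpb (-0.32). Of 59 other splicing regulators 1 was called, Ewsr1 (0.56, SE 0.10, adjusted p = 0.0077), a FET family RNA-binding protein, followed by Matr3 (0.31), Wtap (0.48) and Acin1 (0.74), which were not. Ewsr1 lost the call after quantile normalization (adjusted p = 0.012). Among 10 further SR protein kinases and carriers, Srpk2 was higher by 0.67 (SE 0.10, adjusted p = 0.0028). In DW16 against DC16 limma called 0 genes of these lists. At an unadjusted p under 0.05, 8 spliceosome genes were higher and 20 lower, 2 regulators were higher and 20 lower, and 1 kinase or carrier was higher and 6 lower, where 15.3% of all genes were higher and 27.4% lower. The smallest adjusted p values were those of Pcbp2 (-1.15, adjusted p = 0.010), Puf60 (-1.38, adjusted p = 0.012) and Rbm22 (-0.88). In EW16 against EC16 limma called 3 of 53 spliceosome genes, 1 of 59 regulators and 0 of 10 kinases and carriers (5 of these at an unadjusted p under 0.05), against 3.75% of all genes. They were Puf60 (-1.46, adjusted p = 0.0041), Sart1 (-0.66, adjusted p = 0.0049) and Bcas2 (-1.03, adjusted p = 0.0054), all lower, and Nova1 (0.68, adjusted p = 0.0034), which was higher, named after their values were seen. Malat1 was 1.54 higher in DW16 against DC16 (SE 0.24, adjusted p = 0.0035) and -0.15 in EW16 against EC16 (SE 0.56).

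Immediate early genes, which respond to handling and cell stress, were measured beside the splicing genes. Of 17, limma called 0 in each of the 3 diet comparisons, with 6, 14 and 7 at an unadjusted p under 0.05, where 20.9%, 42.7% and 30.9% of all genes reached it. Their median differences were 0.13 in DW8 against DC8, -0.95 in DW16 against DC16 and -0.58 in EW16 against EC16. In DW16 against DC16 the median of the adipocyte markers was -0.50, of the endothelial markers -0.84 and of mural cell markers -1.01, or -0.13, -0.57 and -0.62 after quantile normalization. The part of these genes in the 16-week results was not tested. Where fewer cells of a type and less RNA per cell give the same value, the arrays cannot tell them apart.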

How the data were processed

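RNA of isolated adipocytes from 45 mice was hybridised to Affymetrix MG430-2.0 arrays, 1 per mouse. The authors deposited log2 expression values after RMA in RMA express, and their text speaks of quantile normalization across conditions, but the deposited arrays do not share 1 distribution (array SD 2.11 to 2.53). Values were used as deposited. Groups were taken from the sample labels. Probe sets were named through the platform annotation (34945 with 1 symbol, 932 with several, 9160 with none). Compared groups were fitted with limma 3.58.1 in R 4.3.3 (lmFit, eBayes), and p-values were adjusted by Benjamini-Hochberg over all 45037 probe sets, with an adjusted p under 0.01 as a call. The study's methods name LIMMA and SAM at the same rate. Any member could be named. Values by mouse are given for the 3 members with the smallest adjusted p per diet comparison and direction, members called in several of these comparisons and members whose probe sets were called in opposite directions. Other genes named are among the 4 of each pathway list with the smallest adjusted p in the comparisons of D mice, with Malat1 and Neat1. Exceptions are Sart1, Bcas2 and Nova1, named for EW16 against EC16 after their values were seen. Promoter sequences are those of RefSeq. The members and lists were chosen with earlier results of these data known. Mice are separate animals, and the number of arrays limits the precision. Alternatives were quantile normalization, filters on level and spread, a threshold of 0.05, SAM, the replicate block, leaving out each mouse and leaving out the narrow-range arrays. The fits were tested on simulated data.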

Additional observations from a re-analysis of the deposited data

Results flagged for a closer look

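Outliers were sought in 147 sets of values, each of 1 probe set or of the member mean in 1 of the 7 groups. The groups held 5 to 9 mice, and the same mice recur across sets. In 12 sets 1 mouse lay farther from the rest than Dixon's critical value allows, and chance flags about 1 set in 20. The value given is the gap to the nearest mouse as a share of the range of the group. The highest DC8 value was set apart for Rbm25 1425523_at (0.709, 9.17 against 8.47) and Pnn 1423325_at (0.738, 5.50 against 4.57), both in mouse 1. The lowest EW8 value was set apart for Sf3b1 (0.834, 12.02 against 12.51) and Son 1455634_at (0.694, 7.28 against 7.78), both in mouse 5. The lowest DC16 value was set apart for Srsf10 (0.827, next at 9.27) and Rbm25 1428908_at (0.713, 7.79 against 8.42), both in mouse 4. In DW8 the lowest Hnrnpl value (0.741, 7.14 against 7.47) and the highest Rbm25 1425523_at value (0.741, 9.63 against 9.31) were set apart. In EW16 the highest Hnrnpl value (0.531, 7.04 against 6.53) and the highest Luc7l3 value (0.629, 11.41 against 10.64) were. The others were the highest EC16 value of Hnrnpa1 (0.72, 10.48 against 10.15) and the highest EW8 value of Ptbp1 (0.855, 10.12 against 9.19).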

How the results depend on the processing

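No called member changed direction under any alternative that was run. Counts are members (representative probe sets), then member probe sets, and counts over all member probe sets were added after seeing the data. The share of all probe sets called by each alternative does not stand beside its count. The counts are therefore not read as particular to splicing genes. In DW8 against DC8 the 1 and 10 became 1 and 3 with a filter on spread, 8 and 33 at a threshold of 0.05 and 0 and 0 with the replicate block. In DW16 against DC16 the 2 and 10 became 0 and 0 without the narrow-range arrays, 5 members above the median level, 10 and 39 with a filter on spread, 12 and 51 at 0.05 and 14 and 48 with the replicate block. In EW16 against EC16 the 1 and 3 became 4 and 7 after quantile normalization, 6 and 21 without the narrow-range arrays, 5 and 10 with a filter on spread, 7 and 13 at 0.05 and 0 and 0 with the replicate block. In DW16 against DW8 the 9 and 25 became 0 and 0 without the narrow-range arrays and 17 and 54 with the replicate block. In EW16 against EW8 the 3 members became 1 after quantile normalization and 0 without the narrow-range arrays or with the replicate block. The difference of the diet effect in D mice between 16 and 8 weeks gave 14 members with the replicate block instead of 0, and the test over 7 groups gave 10 instead of 19 without the narrow-range arrays. The cause of these changes was not tested. Leaving out 1 mouse at a time gave 0 to 3 members and 0 to 20 probe sets in DW8 against DC8 (most without DC8 replicate 1, fewest without DW8 replicate 3), 0 to 10 and 0 to 42 in DW16 against DC16 (DW16 replicates 8 and 6), 0 to 6 and 0 to 14 in EW16 against EC16 (EW16 replicate 4, EC16 replicate 1), 0 to 18 and 0 to 57 in DW16 against DW8 (DW16 replicate 8, DW8 replicate 3), 0 to 7 and 0 to 20 in EW16 against EW8 (EW16 replicate 4, EW8 replicate 1) and 0 to 9 and 0 to 31 for the diet effect by time. Of all 45037 probe sets these fits called 140 to 1165 in DW8 against DC8, 51 to 6041 in DW16 against DC16 and 38 to 3177 in EW16 against EC16. They called 208 to 7301 in DW16 against DW8, 2 to 3300 in EW16 against EW8 and 0 to 3037 for the diet effect by time. SAM called 3, 10 and 8 members in the 3 diet comparisons, and 817, 8248 and 5288 of all 45037 probe sets. Correlations of the deviations of mice that share a number ran from -0.437 to 0.532, with means of -0.117 to 0.169 per comparison, so the numbers were not taken to pair the mice.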
